A study of Homo sapiens with 12 samples.

Results

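The genes described here are 36 human aminoacyl-tRNA synthetase genes, of which 20 encode cytosolic and 16 encode mitochondrial enzymes. They were chosen by name among 19647 genes whose transcripts were measured by RNA sequencing in A549, a human lung adenocarcinoma cell line. The 12 libraries form 4 groups of 3: A549 cells with NR0B1 overexpression, a control for the overexpression whose genotype is labelled WT, A549 cells with NR0B1 knockdown by a short hairpin RNA, and a control for the knockdown that is also labelled WT and whose title reads shNC. NR0B1 (DAX1) belongs to the nuclear receptors without a known ligand and is best known for repressing transcription. All groups carry the treatment label None. Each arm has its own control, and the labels give no vector, hairpin sequence or number of clones. They do not say that the libraries of a group came from separate cultures, so p-values measure the spread between these libraries, which may be technical.

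An aminoacyl-tRNA synthetase joins an amino acid to the tRNAs that carry its anticodons, which is the step that sets the meaning of the genetic code. The enzymes fall into class I and class II by the fold of their catalytic domain. In human cells most cytosolic and mitochondrial enzymes come from different nuclear genes, and the mitochondrial set serves only the few proteins encoded by mitochondrial DNA. GARS and KARS, for glycine and lysine, are known to supply both compartments from 1 gene each, and EPRS is a fusion that charges both glutamate and proline tRNAs. Several cytosolic enzymes sit together in the multisynthetase complex on the scaffold proteins AIMP1, AIMP2 and EEF1E1. When amino acids run short, uncharged tRNA activates the kinase GCN2 (gene EIF2AK4), translation of the transcription factor ATF4 rises, and ATF4 is known to bind C/EBP-ATF response elements near many genes of amino acid supply, several cytosolic synthetase genes among them.

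Because of that background the promoters were read for the letters TGATGCAA, a form of the C/EBP-ATF response element, on either strand (TTGCATCA on the other). Promoters of 250 bases before to 50 bases after the annotated start, from RefSeq (GRCh38.p14), were matched for 30 of the 36 genes, 16 cytosolic and 14 mitochondrial. The letters stood in 6 of the 16 cytosolic and 0 of the 14 mitochondrial promoters. Of all 27305 genes with a promoter in that table, 1.08% had them. Among the 9421 of these whose RefSeq symbol is that of a gene tested here, the share was 0.679%. The 6 are AARS, CARS, IARS, MARS, NARS and TARS. RefSeq lists them under newer symbols (AARS1 for AARS), so they are not counted among the 9421. They are shown because 5 of them are among the genes that were lower in the knockdown. Each line gives 30 bases on the gene's own strand, 5′ to 3′, with the matched letters in capitals.
AARS: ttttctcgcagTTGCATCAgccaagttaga
CARS: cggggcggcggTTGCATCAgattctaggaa
IARS: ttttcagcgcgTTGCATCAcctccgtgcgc
MARS: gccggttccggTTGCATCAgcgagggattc
NARS: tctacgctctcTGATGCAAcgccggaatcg
TARS: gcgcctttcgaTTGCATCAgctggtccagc
In GRCh38.p14 these stretches are chr16:70289675-70289704 for AARS, chr11:3057407-3057436 for CARS and chr9:92293692-92293721 for IARS, all on the minus strand. They are chr12:57488053-57488082 for MARS and chr5:33440956-33440985 for TARS on the plus strand, and chr18:57621804-57621833 for NARS on the minus strand. Counted from the annotated start, with the first transcribed base as 1 and no base 0, the capitals run from -187 to -180 in AARS, -2 to 6 in CARS, -13 to -6 in IARS, -4 to 4 in MARS, 15 to 22 in NARS and 3 to 10 in TARS.

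Other letters were counted in the same way, and the tested genes in this paragraph are the 9421 with a matching RefSeq symbol. TGATGNAA, which contains the first motif, was found in 7 of 16 cytosolic promoters, with GARS added, in 1 of 14 mitochondrial ones (YARS2) and in 2.67% of the tested genes. CACGTG, the E-box read by MYC and its relatives, was found in 1 of 16 cytosolic promoters, in 3 of 14 mitochondrial promoters (CARS2, EARS2 and MARS2) and in 13.0% of the tested genes. TGACNNNGC, the core of the antioxidant response element read by NRF2, was found in 4 of 16 and 2 of 14 and in 19.5% of the tested genes. A match describes letters in a window and was not tested as a binding site.

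The libraries held between 15049011 and 22797076 expected counts, the estimated reads per transcript that the authors deposited. Levels are given as CPM, counts scaled by library size and composition, and levels of different genes are compared only as FPKM, which the authors also scaled to transcript length. NR0B1 itself was measured at 98.7, 81.6 and 83.9 CPM in the overexpression libraries, against 17.8, 59.9 and 55.05 CPM in their control, and at 2.98, 3.31 and 5.83 CPM in the knockdown libraries, against 16.2, 21.1 and 13.3 CPM in theirs. The rise missed the threshold (log2 fold change 0.99 ± 0.38, adjusted p = 0.0912) and the fall passed it (-2.06 ± 0.42, adjusted p = 0.00593). The control groups already differed, NR0B1 being 2.63-fold higher in that of the overexpression arm (adjusted p = 0.0189). In neither arm did the groups overlap for NR0B1, and overexpression control replicate 1 was the lowest of its group. Knockdown replicate 2 was closer to the overexpression control than to its own group, with mean correlations over 11908 genes of 0.942 and 0.927. Knockdown replicates 1 and 3 had 0.953 and 0.943 with their own group. Overexpression control replicate 1 had the lowest mean correlation within its group, 0.951, against 0.945 with the overexpression libraries. Of 5 epithelial markers, KRT8 and KRT18 were abundant (1138 and 1222 FPKM over the 12 libraries), KRT19 and CDH1 averaged 39.5 and 42.1 FPKM, and EPCAM averaged 1.01 FPKM. In the knockdown 3 of them rose, KRT19 by 1.44 ± 0.38 on the log2 scale (adjusted p = 0.0202), EPCAM by 1.74 ± 0.39 (adjusted p = 0.00930) and CDH1 by 0.48 ± 0.14 (adjusted p = 0.0306), and with overexpression CDH1 fell (-1.01 ± 0.14, adjusted p = 0.00215). The part of these markers in the results was not tested. All 5 alveolar markers were under 1 FPKM, and of 8 markers of blood, vessel and stromal cells only CD68 was above 1 FPKM. CD68 had 42.2, 134 and 42.3 CPM in the knockdown, against 46.5, 37.9 and 33.8 CPM in its control, and 135, 108 and 97.5 CPM with overexpression, against 107, 131 and 121 CPM in its control. Knockdown replicate 2 is thus at the level of the overexpression arm for this gene, and the part of this in the results was not tested.

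As a level per transcript length, the cytosolic set was far more abundant than the mitochondrial set. Among the 19 cytosolic genes that could be tested, mean FPKM over the 12 libraries ran from 20.2 in VARS to 147 in GARS, with a median of 63.1. Among the 16 mitochondrial genes it ran from 2.73 in PARS2 to 41.0 in IARS2, with a median of 8.58. GARS, AARS (134 FPKM) and IARS (117 FPKM) led the cytosolic set, with SDs within groups of 24.4, 20.3 and 10.4 FPKM, so that GARS and AARS do not stand apart beyond their spread. In the mitochondrial set IARS2 stood clear of HARS2 (13.8 FPKM), TARS2 (12.3 FPKM) and SARS2 (10.98 FPKM), and the next genes followed each other within their spread. For each of the 16 mitochondrial enzymes the cytosolic enzyme for the same amino acid had the higher mean FPKM, by between 2.01-fold and 32.0-fold, with a median of 6.99-fold. The pair with the largest ratio was AARS over AARS2.

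FARSB, which encodes the beta subunit of the phenylalanine enzyme at chr2:222570536-222656337 (GRCh38, GENCODE 29, as for all gene positions given here), is the only gene of the 36 that could not be tested. Its single Ensembl transcript averaged 0.429 FPKM and was at 0 in 8 of the 12 libraries, whereas 3 assembled transcripts outside the annotation that carry its symbol held 66.9, 54.4 and 66.8 CPM of the whole deposited table in the overexpression libraries, against 45.1, 27.8 and 36.8 in their control. The same transcripts held 73.8, 45.6 and 94.1 in the knockdown libraries, against 87.05, 92.99 and 97.01 in their control, on the same scale. With such transcripts added to the gene, its log2 fold change was 0.57 ± 0.24 with overexpression (adjusted p = 0.0986) and -0.32 ± 0.24 in the knockdown (adjusted p = 0.321), neither past the threshold.

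In the knockdown, 11 of the 19 cytosolic genes tested fell, 0 rose and 8 did not pass the test, while 1 of the 16 mitochondrial genes fell, 0 rose and 15 did not pass. A call means an adjusted p below 0.05 (edgeR's quasi-likelihood test, Benjamini-Hochberg over 11908 genes), and by that rule 11.5% of all genes tested were lower and 12.4% were higher in the knockdown. At an unadjusted p under 0.05 edgeR gave 13 cytosolic and 2 mitochondrial genes, and DESeq2 and limma on log2(FPKM + 1), like edgeR, called 0 of either set as higher. Over all genes limma split its calls as 1172 higher and 1682 lower, against 1479 higher and 1372 lower by edgeR. The median log2 fold change was -0.80 over the cytosolic genes, 0.06 over the mitochondrial genes and 0.03 over all genes tested. The 11 falls ran from 1.44-fold in VARS to 2.52-fold in MARS. The 3 knockdown libraries lay wholly below the 3 of their control for 13 of the 19 cytosolic and 2 of the 16 mitochondrial genes, against 20.6% of all genes tested. Since these are bulk libraries, fewer cells with a transcript and less of it in each cell cannot be told apart.

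**Figure D1:**
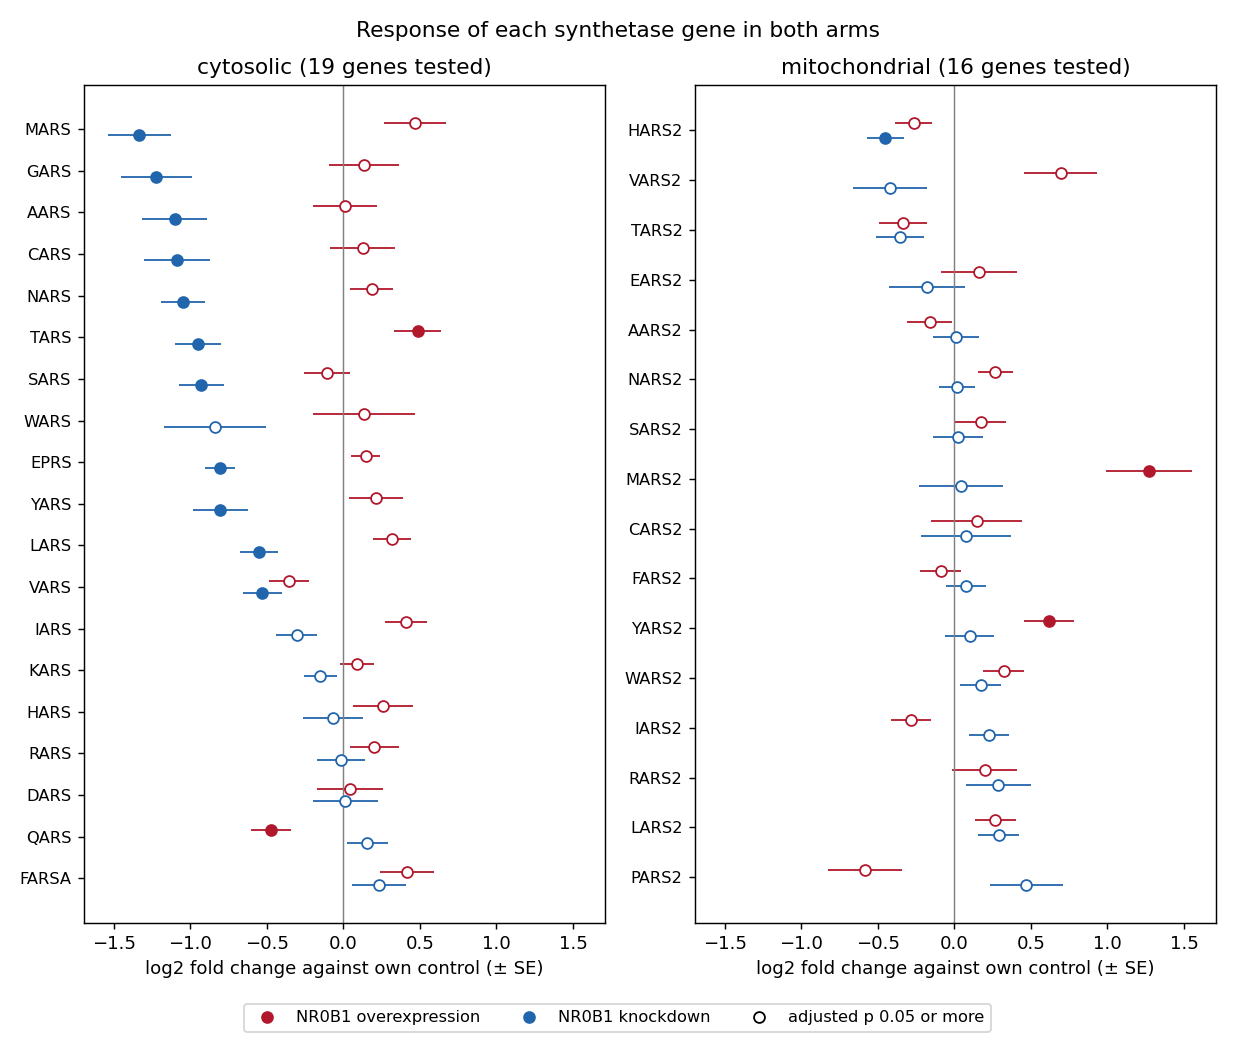
Log2 fold change against the arm's own control, with SE, of the 19 cytosolic (left) and 16 mitochondrial (right) synthetase genes tested, with overexpression in red and the knockdown in blue, and filled points past an adjusted p of 0.05. The blue points of 11 cytosolic genes are filled and lie between -1.33 and -0.53, whereas HARS2 at -0.45 is the 1 filled blue point among the mitochondrial genes.

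Outside the multisynthetase complex, 8 of the 11 cytosolic genes tested fell in the knockdown. GARS, the glycine enzyme, had 324, 409.6 and 276 CPM in the knockdown libraries, against 775, 751 and 828 CPM in the knockdown control (log2 fold change -1.22 ± 0.23, adjusted p = 0.00415). AARS, the alanine enzyme, had 370.2, 564 and 307 CPM in the knockdown, against 890.1, 859 and 915 CPM in the control (-1.10 ± 0.21, adjusted p = 0.00431). In both genes every knockdown library was below every control library, and knockdown replicate 2 was the highest of its group. The cysteine enzyme CARS had 88.04, 136 and 70.2 CPM with the knockdown, against 205, 198 and 223 CPM in the control (-1.09 ± 0.22, adjusted p = 0.00509). NARS, for asparagine, was at 161, 171 and 150.2 CPM, against 331, 324 and 342 CPM in the control (-1.05 ± 0.14, adjusted p = 0.000805). The knockdown libraries of NARS were close together, and those of CARS were not, with replicate 2 again the highest.

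TARS, the threonine enzyme, had 243, 234 and 251 CPM in the knockdown, against 472, 429 and 506 CPM in the knockdown control (-0.95 ± 0.15, adjusted p = 0.00180). SARS, for serine, had 113, 143 and 103 CPM in the knockdown and 229, 211 and 243 CPM in the control (-0.93 ± 0.15, adjusted p = 0.00186). The groups of both genes were far apart compared with the spread within them. For YARS, the tyrosine enzyme, the knockdown libraries were at 173, 233 and 172 CPM, against 324, 313 and 370.5 CPM in the control (-0.80 ± 0.18, adjusted p = 0.00945). VARS, the valine enzyme, was the smallest of the falls, at 104, 77.1 and 101 CPM in the knockdown, against 130.03, 128 and 149 CPM in the control (-0.53 ± 0.13, adjusted p = 0.0146). Replicate 2 was the highest knockdown library for YARS and the lowest for VARS. Without knockdown control replicate 3, and with the 6 libraries of the arm fitted alone, VARS and LARS no longer passed, with adjusted p up to 0.0632 and 0.0549.

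Inside the complex, 3 of the 8 genes tested fell. MARS, the methionine enzyme at chr12:57475445-57517569, showed the largest fall of all 35 genes tested, with 140.03, 189 and 122 CPM in the knockdown, against 385, 328 and 422 CPM in the control (-1.33 ± 0.21, adjusted p = 0.00151). EPRS, the fused enzyme for glutamate and proline, had the smallest adjusted p, with 294, 300.4 and 309 CPM in the knockdown, against 519, 498 and 563 CPM in the control (-0.81 ± 0.10, adjusted p = 0.000394). LARS, the leucine enzyme and a sensor of leucine for mTORC1, had 275, 201 and 227 CPM in the knockdown, against 321, 325 and 383 CPM in the control (-0.55 ± 0.13, adjusted p = 0.0103). All 3 showed no overlap between the groups. The other 5 members of the complex gave log2 fold changes between -0.31 in IARS and 0.16 in QARS. IARS, for isoleucine, had 591, 472 and 609 CPM in the knockdown, against 659.7, 681 and 725 CPM in the control, without overlap, and did not pass (adjusted p = 0.126). KARS (-0.15), RARS (-0.01) and DARS (0.01), for lysine, arginine and aspartate, had overlapping groups. The difference between the shares inside and outside the complex was not tested.

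Among the cytosolic genes outside the complex that did not pass, WARS, the tryptophan enzyme, was lower in each knockdown library, at 129, 235 and 145 CPM, against 302, 273 and 333 CPM in the control (-0.84 ± 0.33, adjusted p = 0.0912). Without overexpression control replicate 1, which only adds to the estimate of the spread here, the fall of WARS passed (adjusted p = 0.0164). With knockdown replicate 2, its highest knockdown library, left out as well, its log2 fold change was -1.14 (adjusted p = 0.000384). Leaving out the highest library deepens a fall in itself, so that fit adds no support for one. HARS (-0.07 ± 0.20) and FARSA (0.23 ± 0.18), for histidine and phenylalanine, had overlapping groups. By structural class, 5 of 9 class I and 5 of 9 class II genes fell, not counting EPRS, which holds both folds. Of the 16 cytosolic genes with a promoter in the RefSeq table, the 8 that fell include 5 with the letters TGATGCAA (AARS, CARS, MARS, NARS and TARS). The 8 others include 1 (IARS), and they count FARSB, which could not be tested. LARS, VARS and YARS fell too, but no promoter was matched for them.

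**Figure D2:**
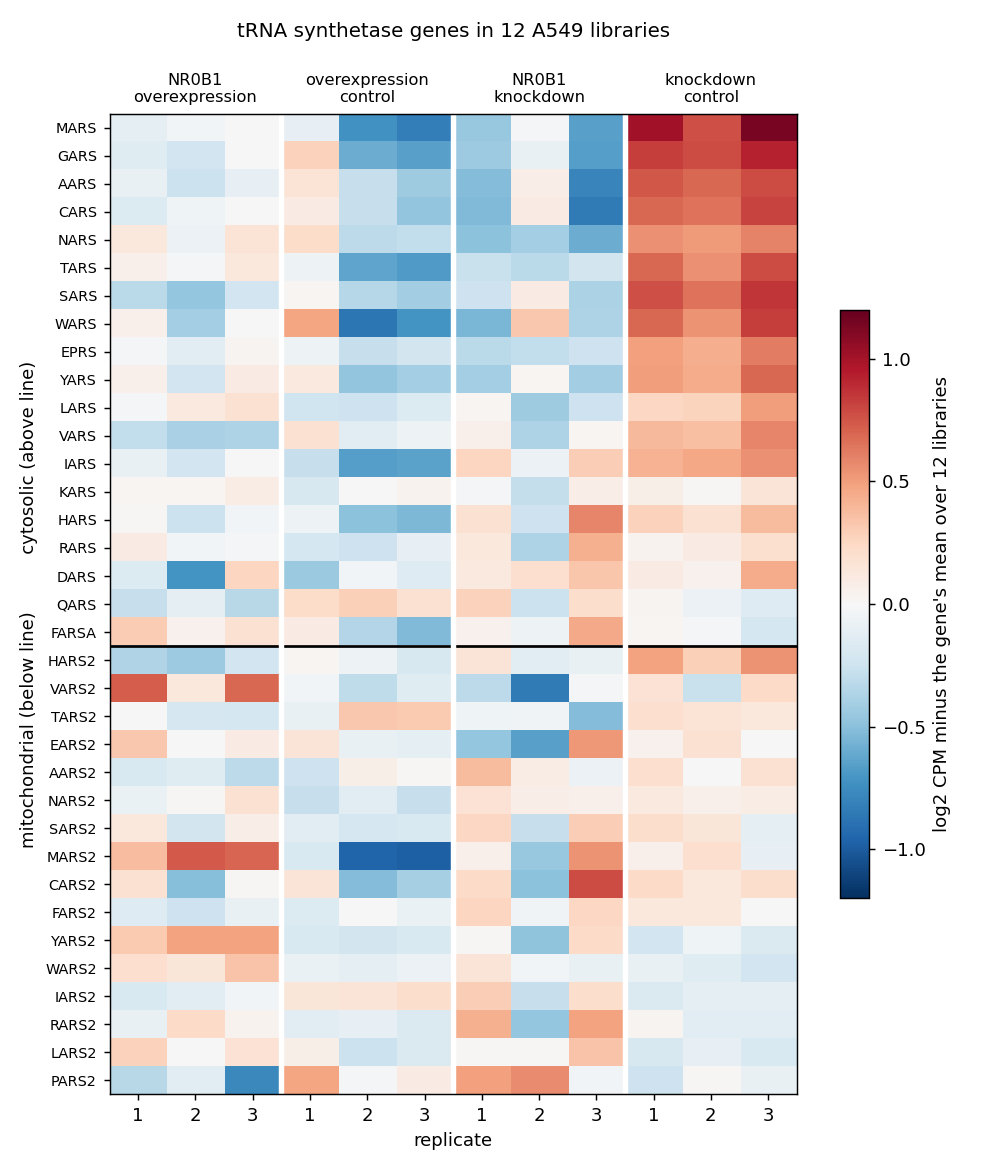
Log2 CPM of each gene minus its mean over the 12 libraries, by library, with the 19 cytosolic genes above the line and the 16 mitochondrial genes below it, both ordered by their change in the knockdown. The red block at the upper right is the knockdown control, whose 3 libraries were above the other 9 for 13 cytosolic genes, and HARS2 is the 1 gene below the line of which the same holds.

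The mitochondrial genes gave no such pattern in the knockdown. HARS2, the histidine enzyme at chr5:140691426-140699318, was the single gene called, with 44.8, 36.9 and 37.9 CPM in the knockdown, against 56.1, 49.05 and 58.3 CPM in the control (-0.45 ± 0.12, adjusted p = 0.0196). The call was lost with the arm fitted alone and without knockdown control replicate 1 or 3, where adjusted p reached 0.0772. TARS2, for threonine, also had every knockdown library below its control, at 36.4, 36.7 and 26.3 CPM, against 43.6, 42.4 and 41.3 CPM, and did not pass (-0.36 ± 0.15, adjusted p = 0.115). LARS2 and WARS2 were above the control in every knockdown library, with log2 fold changes of 0.29 ± 0.13 and 0.17 ± 0.14, and did not pass either (adjusted p = 0.133 and 0.379). LARS2 had 37.7, 37.7 and 47.3 CPM in the knockdown, against 32.6, 34.8 and 32.95 CPM in the control. Knockdown replicate 2 was the lowest knockdown library for 10 of the 16 mitochondrial genes. Without it IARS2 and RARS2 passed as higher, and so did QARS among the cytosolic genes. It was the lowest knockdown library for each of them, so leaving it out raises their fold changes in itself. Without knockdown replicate 3, the highest knockdown library for EARS2, that gene passed as lower (adjusted p = 0.00992).

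Set beside each other by amino acid, the mitochondrial enzyme had the higher log2 fold change in the knockdown in 14 of 16 pairs, with a median difference of 0.87. EPRS stands in 2 of these pairs, beside EARS2 and PARS2. The cytosolic gene fell while the mitochondrial one did not pass as lower in 11 pairs. That is a count of calls, and the difference within a pair was not tested. For valine, VARS at -0.53 and VARS2 at -0.42 were close. For methionine, MARS was at -1.33 and MARS2 at 0.04, MARS2 having 12.3, 8.63 and 17.2 CPM in the knockdown, against 12.3, 13.6 and 11.1 CPM in the control. For asparagine, NARS was at -1.05 and NARS2 at 0.02, with 23.6, 22.1 and 21.8 CPM in the knockdown, against 22.7, 21.8 and 22.2 CPM in the control. Both mitochondrial genes overlapped between the groups. AARS2, for alanine, had 25.4, 20.8 and 18.6 CPM in the knockdown, against 22.5, 19.6 and 22.2 CPM in the control. CARS2, for cysteine, had 24.3, 14.8 and 35.8 CPM in the knockdown, against 24.3, 22.7 and 24.05 CPM in the control. SARS2, for serine, had 32.04, 22.3 and 33.1 CPM in the knockdown, against 31.2, 29.8 and 25.1 CPM in the control. All 3 overlapped between the groups, with log2 fold changes of 0.01, 0.07 and 0.02. The exceptions were histidine, where HARS2 was at -0.45 and HARS at -0.07, and phenylalanine, where FARS2 was at 0.08 and FARSA at 0.23.

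The remaining partners of fallen genes did not pass either, and nor did IARS2, whose partner IARS did not pass in the knockdown. EARS2, for glutamate, had 32.4, 28.5 and 63.99 CPM in the knockdown, against 46.4, 50.6 and 44.5 CPM in the control (-0.18 ± 0.25, adjusted p = 0.637), with a spread in the knockdown group wider than the control's. YARS2, for tyrosine, had 24.3, 17.2 and 28.2 CPM in the knockdown, against 20.5, 23.2 and 21.3 CPM in the control (0.10 ± 0.16, adjusted p = 0.692). VARS2, for valine, had 10.03, 6.92 and 12.3 CPM, against 14.1, 10.4 and 14.7 CPM in the control (-0.42 ± 0.24, adjusted p = 0.224). PARS2, for proline, had 10.7, 11.3 and 7.42 CPM, against 6.38, 7.69 and 7.13 CPM in the control (0.47 ± 0.24, adjusted p = 0.169). The groups of all 4 genes overlapped. IARS2, for isoleucine, had 217, 146 and 205 CPM in the knockdown, against 157, 164 and 164 CPM in the control (0.23 ± 0.13, adjusted p = 0.224). HARS, the cytosolic partner of HARS2, had 74.3, 55.2 and 98.3 CPM in the knockdown, against 79.6, 74.2 and 85.3 CPM in the control (-0.07 ± 0.20, adjusted p = 0.825).

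**Figure D3:**
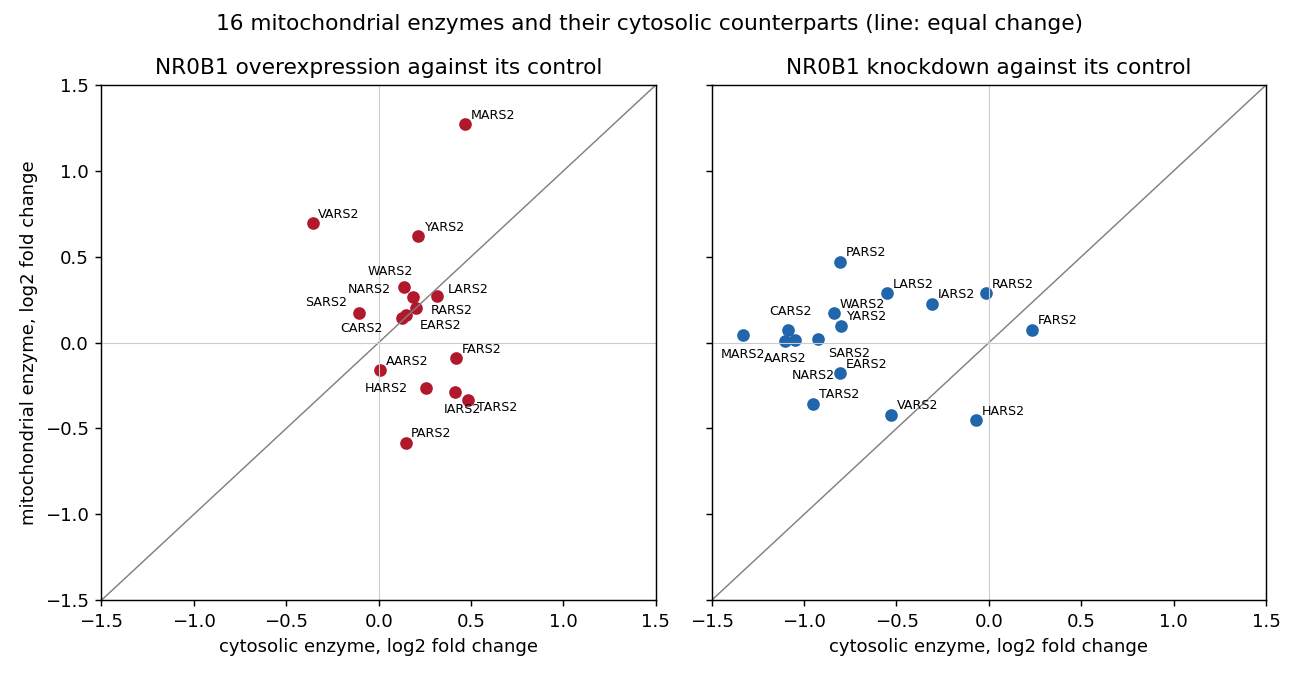
Log2 fold change of each mitochondrial enzyme (vertical axis, labelled) against that of the cytosolic enzyme for the same amino acid (horizontal axis), with overexpression at the left and the knockdown at the right, and the line marking equal change. In the knockdown 14 of 16 points lie above the line and most sit near 0 on the vertical axis, and with overexpression 8 lie above and 8 below.

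Seen across all 4 groups, the group that stood apart in cytosolic synthetase level was the knockdown control. Summed over the 20 cytosolic genes, FPKM was 1076, 1166 and 1061 in the knockdown libraries, against 1859, 1793 and 1967 in the knockdown control. The same sum was 1183, 1101 and 1234 in the overexpression libraries and 1216, 949 and 915 in the overexpression control. The knockdown libraries therefore lay within the range of the overexpression control, and the knockdown control lay above all other 9 libraries. Gene by gene, the 3 knockdown control libraries were above the other 9 for 13 of 19 cytosolic genes and for 1 of 16 mitochondrial genes (HARS2), against 9.23% of all genes tested. The sum over the 16 mitochondrial genes was 175, 134 and 181 FPKM in the knockdown, against 168, 166 and 163 FPKM in its control, and 157, 149 and 161 FPKM with overexpression, against 150.2, 152 and 149 FPKM in its control. In that set knockdown replicate 2 was the lowest of the 12 libraries and replicates 1 and 3 the highest. The ratio of the cytosolic to the mitochondrial sum was 6.15, 8.70 and 5.86 in the knockdown, against 11.1, 10.8 and 12.1 in its control.

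**Figure D4:**
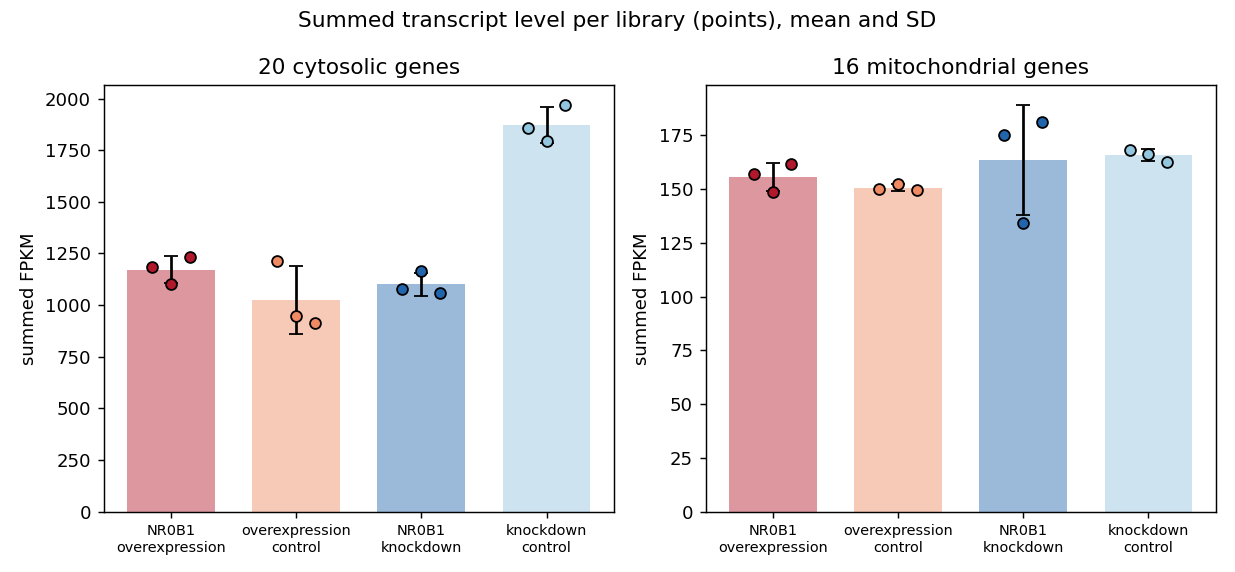
Summed FPKM of the 20 cytosolic (left) and 16 mitochondrial (right) synthetase genes in each library, with bars at the group mean and error bars of 1 SD over 3 libraries. The knockdown control averaged 1873 FPKM for the cytosolic genes, against means of 1027 to 1173 FPKM in the other groups, and the mitochondrial means lie between 151 and 166 FPKM.

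The control groups were compared directly, overexpression control over knockdown control. Of the 19 cytosolic genes, 13 were lower in the overexpression control and 0 were higher, and of the 16 mitochondrial genes 1 was lower (HARS2) and 0 were higher. Over all genes tested 16.1% were lower and 17.2% were higher. At an unadjusted p under 0.05 edgeR gave 15 cytosolic and 4 mitochondrial genes, and limma on log2(FPKM + 1) split its calls over all genes as 1661 higher and 2470 lower, against 2051 higher and 1922 lower by edgeR. The 13 differences ran from 1.36-fold in VARS to 2.82-fold in MARS. MARS had 179, 116 and 108 CPM in the overexpression control, against 385, 328 and 422 CPM in the knockdown control (-1.497 ± 0.21, adjusted p = 0.000686), and TARS had 281, 189 and 183 CPM, against 472, 429 and 506 CPM (-1.11 ± 0.15, adjusted p = 0.000675). The median log2 difference between the controls was -0.70 over the cytosolic genes and -0.13 over the mitochondrial ones. This comparison and the knockdown response share the knockdown control libraries. What set the knockdown control apart was not tested.

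With overexpression few synthetase genes passed the test, 10.5% of the cytosolic and 12.5% of the mitochondrial ones, against 18.1% of all genes tested. Of the 19 cytosolic genes 1 rose, 1 fell and 17 did not pass, and of the 16 mitochondrial genes 2 rose, 0 fell and 14 did not pass, against 9.87% of all genes tested that rose and 8.2% that fell. At an unadjusted p under 0.05 edgeR gave 7 genes of each set, and DESeq2 and limma on log2(FPKM + 1) called 0 mitochondrial genes as lower. The median log2 fold change was 0.15 over the cytosolic, 0.17 over the mitochondrial and -0.03 over all genes tested. TARS had 306, 289 and 319 CPM with overexpression, against 281, 189 and 183 CPM in the overexpression control (0.48 ± 0.15, adjusted p = 0.0467). QARS, the glutamine enzyme, had 91.98, 103 and 88.9 CPM with overexpression, against 129.99, 137 and 127 CPM in the control (-0.47 ± 0.13, adjusted p = 0.0325). Neither gene's groups overlapped. MARS2, the mitochondrial methionine enzyme at chr2:197705369-197708387, had 15.3, 19.6 and 19.2 CPM with overexpression, against 10.4, 6.05 and 5.97 CPM in the control (1.27 ± 0.28, adjusted p = 0.0127). YARS2, the mitochondrial tyrosine enzyme at chr12:32727490-32755902, had 29.95, 33.6 and 33.6 CPM, against 21.3, 20.7 and 21.2 CPM in the control (0.62 ± 0.16, adjusted p = 0.0256). The 3 libraries with overexpression were above all 3 of the control for 4 of the 19 cytosolic genes (IARS, LARS, RARS and TARS) and for 6 of the 16 mitochondrial genes, against 21.6% of all genes tested.

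Overexpression control replicate 1 was the highest of its group for 14 of the 19 cytosolic genes. For TARS it stood at 281 CPM and the other 2 control libraries were at 189 and 183 CPM. Without that library 6 cytosolic genes passed as higher (FARSA, GARS, IARS, MARS, NARS and TARS), with log2 fold changes from 0.38 in NARS to 0.73 in MARS. With knockdown replicate 2 also left out, 9 did. For each of the 6 named genes the control library left out was the highest of its group. Its removal raises their fold changes in itself, so these added calls are no evidence of a rise. Calls rose over all 11908 genes tested as well. There 1686 were higher without overexpression control replicate 1 and 2372 without both libraries, against 1175 with all libraries. MARS, at 177, 187 and 193 CPM with overexpression, against 179, 116 and 108 CPM in the control, did not pass with all libraries (0.47 ± 0.20, adjusted p = 0.130). Of 22 other settings, the call of TARS with overexpression was lost in 12, that of QARS in 9, that of YARS2 in 4 and that of MARS2 in 2. Among the genes that did not pass, VARS2 had 20.6, 13.6 and 20.1 CPM with overexpression, against 12.2, 10.1 and 11.3 CPM in the control (0.69 ± 0.24, adjusted p = 0.0658), without overlap, but with its assembled transcript added the log2 fold change turned to -0.23 (adjusted p = 0.150). PARS2 had 6.02, 6.92 and 4.45 CPM, against 10.5, 7.46 and 8.11 CPM, every library lower than every control library (-0.58 ± 0.24, adjusted p = 0.111).

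Of the 11 cytosolic genes that fell in the knockdown, only TARS passed with overexpression. GARS had 396, 373 and 435 CPM with overexpression, against 531, 289.7 and 278 CPM in the overexpression control (0.13 ± 0.23, adjusted p = 0.714). AARS had 499.6, 446 and 497 CPM with overexpression, against 598, 439 and 396 CPM in the control (0.01 ± 0.21, adjusted p = 0.980). In both genes control replicate 1 was the highest of all 6 libraries of the arm, and the other 2 control libraries were close to each other. EPRS had 361, 336 and 377 CPM with overexpression, against 352, 303 and 316 CPM in the control (0.15 ± 0.10, adjusted p = 0.303). NARS had 248, 217 and 255 CPM, against 265, 183 and 186 CPM in the control (0.19 ± 0.14, adjusted p = 0.378). LARS had 268, 294 and 307 CPM, against 228, 227 and 241 CPM in the control (0.32 ± 0.13, adjusted p = 0.0976), and was the one of these 5 without overlap. CARS (0.13 ± 0.21), SARS (-0.11 ± 0.15) and YARS (0.21 ± 0.18) did not pass either. By amino acid, the mitochondrial enzyme had the higher log2 fold change in 8 of 16 pairs and the cytosolic enzyme in the other 8, with a median difference of 0.01.

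**Figure D5:**
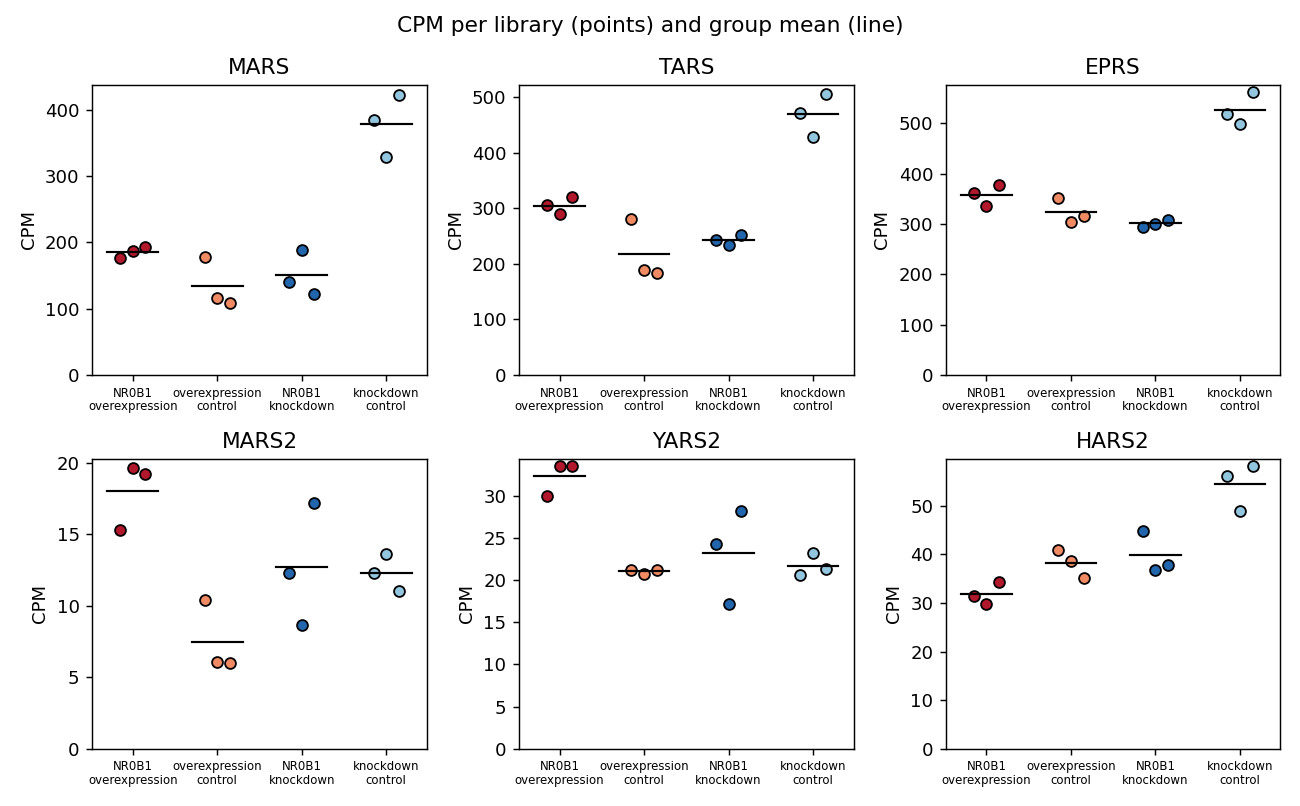
CPM in each library (points) and group mean (line) of 3 cytosolic genes (upper row) and 3 mitochondrial genes (lower row). For MARS, TARS, EPRS and HARS2 the 3 knockdown control libraries are above the other 9, and for MARS2 and YARS2 the overexpression group has the highest mean.

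The responses of the arms were tested against each other as the overexpression response minus the knockdown response. This difference includes the gap between the controls, with 13 of the 19 cytosolic genes lower in the overexpression control (median log2 difference -0.70). For MARS that gap was -1.497 ± 0.21, and its overexpression and knockdown groups averaged 186 and 150 CPM. The part of the controls in these differences was not tested. Of the 19 cytosolic genes 11 gave a higher and 1 a lower response with overexpression, and of the 16 mitochondrial genes 2 gave a higher and 1 a lower one, against 13.1% higher and 12.6% lower over all genes tested. The median log2 difference was 0.87 over the cytosolic and 0.11 over the mitochondrial genes. The largest was in MARS (1.80 ± 0.29, adjusted p = 0.00180), followed by TARS (1.43 ± 0.21, adjusted p = 0.00122). TARS was the 1 gene of the 36 called in both arms, and in opposite directions. IARS passed here (adjusted p = 0.0200) without passing in either arm, at 466, 422 and 493 CPM with overexpression, against 409, 312 and 317 CPM in its control. VARS fell in the knockdown and gave no difference past the threshold (0.17 ± 0.18, adjusted p = 0.521), with 80.9, 75.9 and 76.9 CPM in the overexpression libraries, against 113, 90.9 and 95.3 CPM in their control. QARS was the exception in direction (-0.63 ± 0.19, adjusted p = 0.0309), with 135, 93.7 and 129 CPM in the knockdown, against 114, 106 and 100.3 CPM in the knockdown control. In the mitochondrial set MARS2 (1.23 ± 0.39, adjusted p = 0.0406) and VARS2 (1.11 ± 0.34, adjusted p = 0.0339) were higher and PARS2 (-1.05 ± 0.34, adjusted p = 0.0415) was lower. Of 21 other settings, the call of MARS2 was lost in 10, that of PARS2 in 12 and that of QARS in 10, and that of VARS2 was lost in 7 and turned in direction in 1 more.

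Genes of other proteins that handle tRNA were counted from lists of known members. Of the 3 scaffold genes of the multisynthetase complex, AIMP1 fell in the knockdown to 26.4, 23.3 and 31.5 CPM, against 39.2, 37.2 and 40.5 CPM in the control (-0.52 ± 0.13, adjusted p = 0.0127). AIMP2 (-0.62 ± 0.27, adjusted p = 0.113) and EEF1E1 (0.24 ± 0.14, adjusted p = 0.231) did not pass. XPOT, the exporter of tRNA from the nucleus, had 232, 204 and 136 CPM in the knockdown, against 464, 432 and 466 CPM in the control (-1.25 ± 0.18, adjusted p = 0.000966). Among 13 genes of tRNA end processing and export, 4 fell in the knockdown (XPOT, RPP14, RPP38 and TRNT1) and 1 rose (RPP25), against 11.5% lower and 12.4% higher over all genes tested. At an unadjusted p under 0.05 edgeR gave 4 of the 13 with overexpression, of which 3 passed as higher (RPP14, RPP25 and RPP38, for proteins of ribonuclease P) and 0 as lower, against 9.87% higher over all genes. The other ribonuclease P genes of the list (POP1, POP4, POP5, POP7, RPP30 and RPP40) did not pass in either arm. None of the 5 cytosolic elongation factor genes, which deliver charged tRNA to the ribosome, passed in either arm by edgeR, with 0 of them at an unadjusted p under 0.05. Of 13 mitochondrial translation factor genes, 3 fell in the knockdown (MTIF2, QRSL1 and GFM2) and 1 rose (MTFMT, which formylates the initiator methionine), and with overexpression 1 rose (MRRF). Over all genes 11.5% fell and 12.4% rose in the knockdown and 9.87% rose with overexpression, so that the single genes that rose on this list are near those shares.

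Among 7 genes of the response to uncharged tRNA, 4 rose with overexpression (ATF4, EIF2S1, PPP1R15A and PPP1R15B), against 9.87% of all genes tested. In the knockdown EIF2AK4, the GCN2 kinase, rose (0.53 ± 0.13, adjusted p = 0.0143) and PPP1R15A and PPP1R15B, subunits of the phosphatase that reverses the action of that kinase, fell. ATF4 had 546, 592 and 602 CPM with overexpression, against 491, 330.2 and 308 CPM in the control (0.62 ± 0.17, adjusted p = 0.0310). In the knockdown it had 369, 389.8 and 283 CPM, against 448, 442 and 454 CPM in the control, which did not pass (-0.37 ± 0.17, adjusted p = 0.143). PPP1R15A, itself induced in stressed cells, had 74.7, 148 and 83.3 CPM in the knockdown, against 573, 491 and 606 CPM in the control (-2.45 ± 0.36, adjusted p = 0.00118). Of 16 known ATF4 targets in amino acid supply, 8 fell in the knockdown and 0 rose (edgeR, 11 at an unadjusted p under 0.05), with a median log2 fold change of -0.90, against 11.5% of all genes lower and 12.4% higher. With overexpression 1 rose (PHGDH), against 9.87% of all genes. ASNS, the asparagine synthetase of metabolism, is the best known of them. It had 119.5, 176 and 89.6 CPM in the knockdown, against 339, 344 and 393 CPM in the control (-1.48 ± 0.29, adjusted p = 0.00497), and 218, 197 and 239 CPM with overexpression, against 192, 97.1 and 92.1 CPM in its control (0.78 ± 0.29, adjusted p = 0.0796). Between the controls 10 of the 16 were lower in the overexpression control and 1 was higher, against 16.1% and 17.2% of all genes.

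Several genes are measured through more than 1 transcript, and their transcripts did not always move as one. The 3 main transcripts of TARS stood at 52.7, 17.9 and 4.72 FPKM in the knockdown (means of 3 libraries), against 103, 35.6 and 9.76 FPKM in the control, in the order TARS-204, TARS-202 and TARS-201. Both main transcripts of YARS were lower too, at 38.7 and 28.4 FPKM, against 68.5 and 51.8 FPKM in the control. None of these 5 overlapped between the groups. The leucine enzyme was uneven: LARS-212 averaged 33.99 FPKM in the knockdown, against 55.9 FPKM in the control, without overlap, and LARS-202 averaged 9.63 FPKM, against 10.3 FPKM, with overlap. LARS-201 averaged 8.88 FPKM, against 11.4 FPKM, without overlap. IARS-206, the main IARS transcript, averaged 55.2 FPKM in the knockdown, against 62.4 FPKM in the control, with overlap. IARS-202 averaged 37.7 FPKM in the knockdown, against 52.2 FPKM in the control, and IARS-203 averaged 31.1 FPKM, against 42.2 FPKM, both without overlap. IARS-213 averaged 3.50 FPKM in the knockdown, against 6.10 FPKM in the control, with overlap. With overexpression IARS-213 averaged 14.0 FPKM, against 2.81 FPKM in its control. There IARS-202 averaged 31.0 against 21.8 FPKM, IARS-206 33.9 against 33.7 FPKM and IARS-203 18.5 against 18.8 FPKM. The split of reads between transcripts is the authors' estimate, and it was not tested.

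The source of the reads is less certain for some genes. MARS overlaps the stress factor gene DDIT3 by 982 bases on the opposite strand, and the sources used here do not say whether counting used strand, so reads of the pair cannot be told apart. DDIT3 had 29.3, 66.05 and 7.92 CPM in the knockdown, against 114, 119.9 and 119 CPM in the control (-1.77 ± 0.61, adjusted p = 0.0569). With 2 assembled transcripts that carry the MARS symbol added, MARS still fell in the knockdown (-1.08 ± 0.19, adjusted p = 0.00171). HARS and HARS2 overlap each other by 437 bases on opposite strands. YARS overlaps S100PBP by 1387 bases and YARS2 overlaps DNM1L by 18161 bases, both on opposite strands, and VARS2 overlaps GTF2H4 on the same strand. The call of VARS2 across the arms did not outlast the addition of its assembled transcript, which turned the log2 difference to -0.04 (adjusted p = 0.874).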

How the data were processed

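RNA sequencing libraries of A549 cells (4 groups of 3, grouped by the labels) were analysed from 1 deposited table of 96247 transcripts. Per the submitters' processing notes, the tools were fastp, Bowtie2 2.2.8, HISAT2 2.0.5, StringTie 1.3.1 and RSEM. The notes name mouse genome builds, whereas 82237 of the 82270 Ensembl identifiers are in the human GENCODE 29 annotation. Whether counting used strand is not given in the sources used here. The authors deposited expected counts, which are estimates of reads per transcript and need not be whole, and FPKM values per transcript. Expected counts and FPKM were summed here over Ensembl transcripts of each symbol. The 13977 assembled transcripts, which held 13.3% to 15.4% of the counts of a library, entered only as an alternative. Some symbols that a spreadsheet had turned into dates were restored from their identifiers.

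Summed counts were rounded and tested with edgeR 4.0.16 in R 4.3.3 (TMM scaling, robust quasi-likelihood, 12 libraries in 1 fit, 8 residual degrees of freedom), for genes with at least 1 FPKM in at least 3 libraries. Adjusted p is by Benjamini-Hochberg over these 11908 genes, SE is the absolute log2 fold change over the root of the F statistic, and the common dispersion corresponds to a coefficient of variation of 24.5%. CPM were scaled by TMM library sizes. Alternatives used limma 3.58.1 on log2(FPKM + 1) or log2(FPKM + 0.1), DESeq2 1.42.0 or its size factors, other filters, assembled transcripts, 1 arm alone, a replicate block and libraries left out. The scripts were tested on simulated data. The 36 genes and the related lists were chosen with earlier results of these data known. Values in every library are given for members called in an arm or in the difference of the arms and for their partner in the other set. From each related list the rule named up to 4 called genes with the smallest adjusted p, and further genes (DDIT3, ASNS, CD68 and others that did not pass) were named after their values were seen. Low genes such as PARS2 rest on fewer counts.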

Additional observations from a re-analysis of the deposited data

Results flagged for a closer look

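For 15 of the 35 genes tested the response to overexpression differed from the response to knockdown by the test of that difference. Over all 11908 genes tested the share was 25.6%. The log2 difference, overexpression response minus knockdown response, was 1.11 for AARS, 1.22 for CARS, 0.95 for EPRS, 1.35 for GARS, 0.72 for IARS and 0.87 for LARS. It was 1.80 for MARS, 1.23 for NARS, 0.82 for SARS, 1.43 for TARS and 1.02 for YARS, and -0.63 for QARS. Among the mitochondrial genes it was 1.23 for MARS2, 1.11 for VARS2 and -1.05 for PARS2. The calls of IARS, QARS, MARS2, VARS2 and PARS2 were not kept in every setting tried. Each arm has its own control, so the control groups enter these differences with opposite signs.

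Assembled transcripts, which the comparisons above use only where said, held counts under 18 of the gene symbols. As CPM of the whole deposited table, those of FARSB averaged 62.7 with overexpression and 36.6 in the overexpression control, those of HARS2 averaged 6.63 with overexpression and 2.55 in the control, and those of IARS averaged 1.83 with overexpression and 0.263 in the control. For these 3 the libraries with overexpression were all above those of the control. The reverse held for QARS (mean 0.443 with overexpression and 7.99 in the control), SARS2 (0 and 1.13) and VARS2 (6.38 and 15.9). In the knockdown the libraries were all below those of the control for GARS (mean 4.16 in the knockdown and 8.44 in its control) and TARS (0.489 and 2.98). These differences were not tested for the assembled transcripts alone, and some, such as those of IARS and SARS2, rest on values near 0 CPM. Over all genes tested, from Ensembl transcripts, the overexpression libraries were all above their control for 21.6% and all below for 21.9%. The knockdown libraries were all below their control for 20.6%.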

How the results depend on the processing

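Of the 11 cytosolic calls in the knockdown 9 were kept in every setting tried, and so were 10 of the 12 cytosolic calls in the difference of the arms. None of the other calls was kept in every setting: 0 of the 4 with overexpression, 0 of 1 mitochondrial in the knockdown and 0 of 3 mitochondrial in the difference of the arms. Leaving out both overexpression control replicate 1 and knockdown replicate 2 gave, with overexpression, 9 cytosolic genes higher and 2 lower and 4 mitochondrial genes higher and 2 lower. In the knockdown it gave 1 cytosolic and 2 mitochondrial genes higher and 2 mitochondrial genes lower. The 11 cytosolic genes that fell with all libraries passed as lower there too, and so did WARS. For WARS, knockdown replicate 2 was the highest of its group. For the 9 cytosolic genes higher with overexpression, overexpression control replicate 1 was the highest of its group. Leaving out such a library moves the fold change that way in itself. Over all 11908 genes tested this fit called 2372 higher and 2090 lower with overexpression and 2267 higher and 2227 lower in the knockdown. It moved the cytosolic median of the difference of the arms to 1.01. With overexpression 2 cytosolic genes were higher by DESeq2, by limma with either pseudocount and with assembled transcripts added, and 0 were higher with edgeR's own filter or no filter. Assembled transcripts moved the mitochondrial median with overexpression to 0.056 and left 1 mitochondrial gene higher in the difference of the arms, where VARS2 turned to -0.038. In that difference no filter gave 0 cytosolic and 0 mitochondrial genes lower, DESeq2 gave 2 mitochondrial genes lower and limma with a pseudocount of 0.1 gave 0. The arm fitted alone gave 0 mitochondrial genes lower in the knockdown. The cause of these changes was not tested. The replicate numbers were not used as pairs in the main fit. Same-numbered libraries of different groups had correlations of deviations from -0.22 to 0.25 (18 pairs) and others from -0.24 to 0.19 (36 pairs). The highest, 0.25, was between replicate 1 of overexpression and replicate 1 of its control. Such overlapping ranges cannot decide whether the numbers pair the libraries. A fit with a replicate block called 1867 genes with overexpression and 2446 in the knockdown, against 2152 and 2851, and gave 0 cytosolic genes lower with overexpression and, in the difference of the arms, 0 cytosolic genes lower and 1 mitochondrial gene higher.

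Leaving out 1 library at a time gave, with overexpression, 0 to 6 cytosolic genes higher and 0 to 2 lower, 0 to 3 mitochondrial genes higher and 0 to 1 lower, and a mitochondrial median of 0.10 to 0.26. In the knockdown it gave 0 to 1 cytosolic genes higher and 9 to 12 lower, a cytosolic median of -0.85 to -0.68, and 0 to 2 mitochondrial genes in each direction. In the difference of the arms it gave 0 to 1 cytosolic genes lower, 0 to 4 mitochondrial genes higher and 0 to 1 lower, and a mitochondrial median of 0.054 to 0.23. Over all genes these fits called 821 to 3300 genes with overexpression and 1503 to 3435 in the knockdown, the arm alone called 1833 in the knockdown, and leaving out both libraries named above called 4462 with overexpression and 4494 in the knockdown.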
